A study of Drosophila melanogaster with 12 samples.

Results

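The early response of Kc cells to the steroid hormone 20-hydroxyecdysone (20HE) was read from 4 of the 12 arrays of the series. These were the 2 arrays of cells given 3 h of hormone and the 2 arrays of cells given none (0 h), all 4 after RNAi against beta-galactosidase. Each array was chosen by its title, and all 16637 transcripts with a FlyBase identifier were described, out of 16638 rows in the deposited table. The remaining row is a random-sequence control, whose level marks the background of an array. Kc is an embryonic Drosophila melanogaster line grown here in serum-free medium. The RNAi against beta-galactosidase served as the control knockdown, and the cells at 0 h and at 3 h both carried it. The other 8 arrays hold control RNAi cells at 48 h of 20HE, and cells with RNAi against CP190, a chromatin protein of insulators, at 0, 3 and 48 h. They shared in the estimate of the spread. The labels give no dose of the hormone. They call the 2 arrays of each group biological replicates. Titles name Kc cells throughout, whereas the extraction protocol also mentions Mbn2 cells. The marker genes that would check the line were not analysed here, since no identifier was paired with them.

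20HE is the hormone that sets off moulting and metamorphosis in the fly. It binds the ecdysone receptor EcR and its partner Ultraspiracle, which then act as a transcription factor at hormone response elements. A first set of targets, many of them transcription factors themselves, is induced directly, and their products control later sets of genes. Kc cells are a classic model of this cascade, since the hormone makes them stop dividing and change shape over days. Samples taken within hours therefore look at the early steps.

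After 3 h of hormone a small part of the transcriptome had changed, and the larger changes were nearly all rises. By limma, 159 of 16637 transcripts rose (0.956%) and 59 fell (0.355%), together 218 or 1.31%, at a Benjamini-Hochberg adjusted p under 0.05. This fit did not pair the arrays by replicate number, and one that did gave more calls, as set out below. The 159 rises had a median log2 change of 0.90 and reached 4.37, whereas the 59 falls had a median of -0.70 and reached -1.21. Among the changes of at least 2-fold there were 69 rises and 4 falls. Over all transcripts the median log2 change was -0.0031, and the central 50% of transcripts lay between -0.0706 and 0.063. In a bulk sample, a lower level in each cell and fewer cells that express the transcript cannot be told apart.

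These counts fell when any 1 of the 4 arrays compared was left out, which leaves 1 array in a group. The total fell least without replicate 2 at 0 h. Leaving out replicate 1 at 3 h gave 135 calls (98 rises and 37 falls), and leaving out replicate 1 at 0 h gave 142 (111 and 31). Without replicate 2 at 3 h there were 120 rises and 26 falls. A set of 97 transcripts, 82 that rose and 15 that fell, was called in the full fit and in each of the 4 fits that left out 1 of the arrays compared. That set held 61 of the 73 changes of at least 2-fold. With the replicate number as a block the counts were 386 in all (2.32%), 249 rises (1.5%) and 137 falls (0.823%), and these included all 218. When only the 4 arrays compared were fitted, 79 rises and 10 falls were called.

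The largest rise was that of FBtr0100515, a transcript not paired with a gene here. Its intensity was 575.7 and 717.3 on the 0 h arrays, and 13552.6 and 12987.6 on the 3 h arrays. The groups lay far apart, with replicate 1 at 0 h within 1.5-fold of the random control. The log2 change was 4.37 ± 0.12 (SE, limma adjusted p = 2.5e-09), or 20.6-fold as measured. Background adds to the lower level, which makes the measured fold smaller, but the estimate is not a minimum. Subtracting the random control from each array raised the log2 change to 5.91.

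FBtr0088368, also without a gene name here, showed the second largest rise. It stood at 502.0 and 508.4 at 0 h and at 7767.6 and 7253.0 at 3 h. Both 0 h arrays were within 1.5-fold of the random control, where background makes a measured fold smaller. The log2 change was 3.89 ± 0.099 (adjusted p = 1.32e-09), or 14.9-fold as measured. With the random control subtracted it was 6.41, larger than that of FBtr0100515, so the order of the 2 rises is not settled.

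Fatp1 was the only transcript with a gene name that passed the threshold. It encodes a fatty acid transport protein, which takes up long-chain fatty acids. Its intensity was 4570.7 and 6239.1 at 0 h and 12953.7 and 13859.2 at 3 h. Both 3 h arrays lay above both 0 h arrays, and the 0 h arrays differed more from each other than the 3 h arrays did. The log2 change was 1.33 ± 0.13 (2.51-fold, adjusted p = 2.85e-04), with a 95% interval of 1.03 to 1.62. It was 1.503 between the arrays numbered 1 and 1.151 between those numbered 2.

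The largest falls were smaller than these rises. FBtr0077877 had intensities of 5577.1 and 5113.4 at 0 h and of 2787.6 and 1919.3 at 3 h. The groups did not overlap, and the log2 change was -1.21 ± 0.19 (adjusted p = 0.00603). FBtr0113039 went from 2426.7 and 2690.3 to 973.0 and 1464.8, a log2 change of -1.10 ± 0.20 (adjusted p = 0.0165). Its 3 h arrays differed from each other by more than its 0 h arrays. The call of FBtr0077877 was lost without 0 h replicate 1 (adjusted p = 0.0629) or 3 h replicate 2 (0.0563). That of FBtr0113039 was lost without 0 h replicate 1 (0.0711), 0 h replicate 2 (0.116) or 3 h replicate 1 (0.133). Neither passed with only the 4 arrays fitted, with the same log2 changes (adjusted p of 0.052 and 0.0947). Nor did they with the random control subtracted, where the log2 changes were further from 0, -1.39 (0.218) and -1.50 (0.456).

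**Figure D1:**
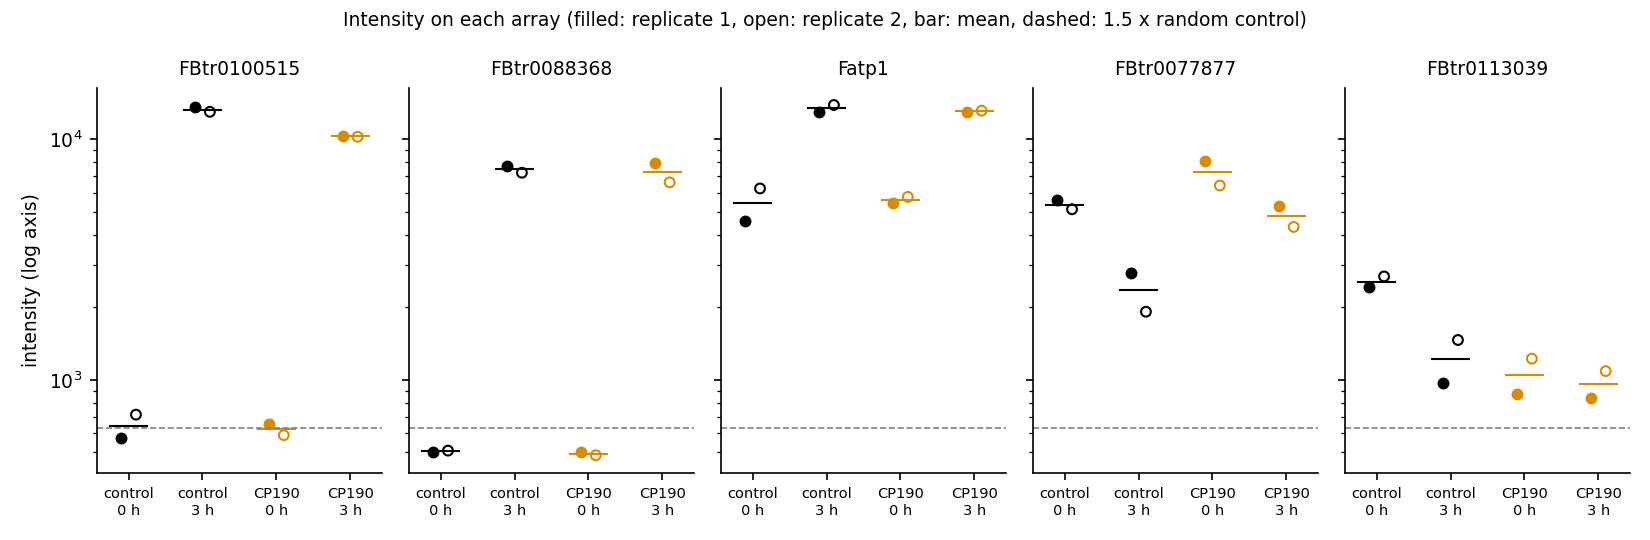
Intensity on a log axis of the 2 largest rises, Fatp1 and the 2 largest falls, on the control RNAi arrays (black) and the CP190 RNAi arrays (orange) at 0 and 3 h of 20HE. Filled points are replicate 1, open points replicate 2, bars are means of 2 arrays, and the dashed line is 1.5 times the random control; the first 2 transcripts start near that line and end between 6614.0 and 13552.6 in both arms.

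The other 15 named transcripts did not pass the test. As measured, all 15 had a 95% interval inside a 1.5-fold change in either direction, but this bounds no change near background or near saturation. Their log2 changes ran from -0.24 to 0.15, with 10 below 0 and 5 above, and the smallest adjusted p was 0.781. The largest differences belonged to CG31178 (-0.24 ± 0.11), to sle, which encodes a nucleolar protein (-0.20 ± 0.12), and to kis, a chromatin remodeller of the trithorax group (-0.15 ± 0.087). CG31178 lay within 1.5-fold of the random control on every array compared, from 464.8 to 604.6. Its log2 change was -1.16 (not called) with that control subtracted and values under 50 set to 50. For sle the intensities were 28541.4 and 28894.3 at 0 h and 24698.2 and 25297.4 at 3 h. The 3 h arrays of sle were both lower, by a difference that did not pass the test (adjusted p = 1). For kis they were 17985.5 and 18356.3, then 16644.7 and 16016.7.

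The smallest differences among named transcripts belonged to rdx, a substrate adaptor of a ubiquitin ligase (-0.021 ± 0.14), alpha-Spec, a spectrin of the membrane skeleton (0.034 ± 0.092), and His4r, a histone H4 gene (-0.036 ± 0.073). His4r measured 27240.9 and 27778.5 at 0 h and 27238.5 and 26440.8 at 3 h. For LanA, a laminin chain of the extracellular matrix, the 0 h arrays read 42016.7 and 41604.6 and the 3 h arrays 45001.0 and 48049.1, a log2 change of 0.15 ± 0.077 (adjusted p = 0.912). These arrays, and those of Uba1, all lay above an intensity of 32768, where a scanner nears saturation and measured changes can be too small. The log2 changes of the other named transcripts also lay between -0.24 and 0.15. They included the histone deacetylase HDAC3 (-0.090 ± 0.11), the phosphate cotransporter NaPi-III (-0.13 ± 0.12) and the ubiquitin-activating enzyme Uba1 (0.073 ± 0.076). Among them too were SuUR, which acts on DNA under-replication (-0.087 ± 0.11), mio (0.048 ± 0.081) and Wdr24 (0.14 ± 0.13). Both mio and Wdr24 are of the complex that controls the growth regulator TORC1. The last 2 were fend (-0.072 ± 0.085), within 1.5-fold of the random control like CG31178 and at -0.32 with it subtracted, and CG16974 (-0.092 ± 0.096). EcR, Ultraspiracle and the classic early genes had no identifier with a name here and were not analysed.

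By size, the rises formed a long tail. Of the 159, 30 were under 1.5-fold, 60 were 1.5- to 2-fold, 54 were 2- to 4-fold, 7 were 4- to 8-fold and 8 were 8-fold or over. The falls were 17, 38 and 4 in the first 3 of these classes, with 0 above 4-fold. Every transcript with a measured change of at least 2-fold, 73 in all, passed the test. The smallest changes that passed were 0.37 for rises and -0.38 for falls.

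**Figure D2:**
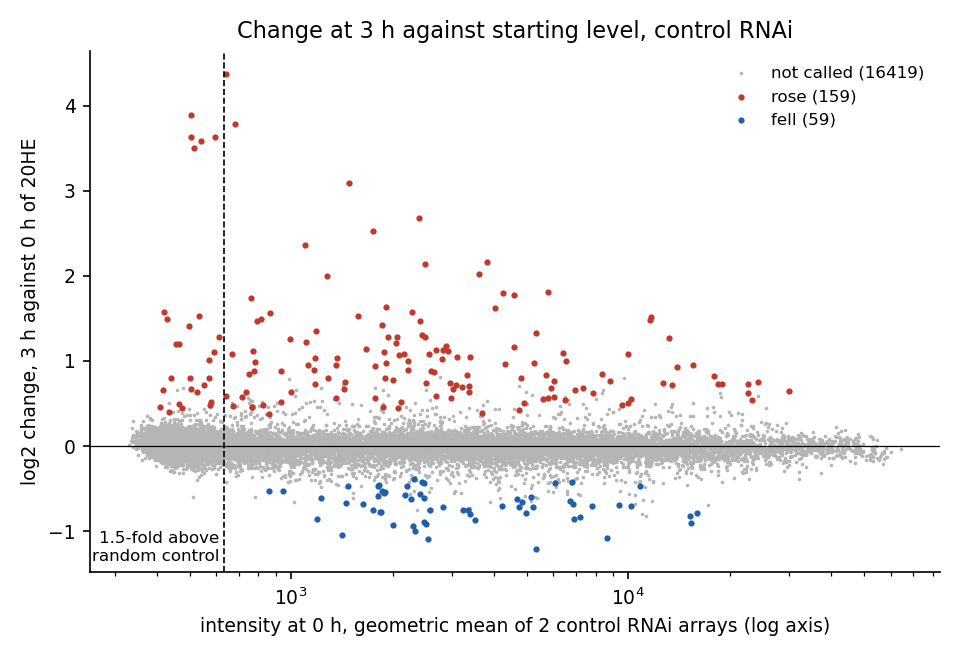
Log2 change at 3 h against the 0 h intensity (log axis, geometric mean of 2 arrays) for 16637 transcripts in control RNAi cells. The 159 that rose (red) spread from background to an intensity of 29910, while the 59 that fell (blue) all start at 862 or above; the 8 largest rises start between 505 and 1489.

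The 8 rises of 8-fold and over had a median of 566 at 0 h, against 1140 over all transcripts, and of 7433 at 3 h. Choosing them by the ratio of these same levels favours a low start and a high end. At 0 h they lay between 505 and 1489 (group geometric means), with 5 of the 8 within 1.5-fold of the random control, and at 3 h between 5886 and 13267. Each of their replicate pairs changed by 2.75 or more on the log2 scale. The 7 rises of 4- to 8-fold began higher, between 1102 and 3816, with 0 near background, and ended between 5109 and 17157. For 7 of the 8 strongest, both 48 h control arrays lay above both 3 h arrays, and for 1 both lay below. Of the 7 next, 1 lay above and 6 lay below. The 8 strongest had a median of 23618 at 48 h, and the median of the 7 next went from 10976 at 3 h to 5276 at 48 h. Since these transcripts were picked as high on the 3 h arrays, a lower 48 h value is favoured. How much this choice adds was not tested. The 54 rises of 2- to 4-fold had a median of 2049 at 0 h and of 4711 at 3 h.

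The 59 falls ran between moderate levels. Their 0 h intensities were 862 to 15952, with a median of 2515, against a median of 1140 over all transcripts. At 3 h they were 597 to 9214, with a median of 1717. Only 1 of the 59 ended within 1.5-fold of the random control. The 4 falls of at least 2-fold had 0 h levels of 1414 to 8669 and 3 h levels of 685 to 4113. The changes of the 2 replicate pairs differed by a median of 0.20 over all falls and 0.17 over all rises.

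Rises and falls were counted by starting level. Transcripts were put into 4 classes by their mean log2 level on the 0 h arrays relative to the random control. Of 6572 transcripts within 1.5-fold of that control, 27 rose (0.411%) and 0 fell. Of 2650 at 1.5- to 4-fold, 40 rose (1.51%) and 8 fell (0.302%). Of 4323 at 4- to 16-fold, 68 rose (1.57%) and 39 fell (0.902%), and of 3092 at over 16-fold, 24 rose (0.776%) and 12 fell (0.388%). Rises outnumbered falls in all 4 classes, and both directions had their highest share at 4- to 16-fold. With the replicate block the highest share of rises was instead at 1.5- to 4-fold (2.75%, against 2.15% at 4- to 16-fold), and falls made up 0.0152% of the lowest class.

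These classes use the same 0 h arrays as the change, so a chance low reading places a transcript in a lower class and makes its change larger. With classes from the 0 h arrays of CP190 RNAi cells, which are not part of the change, the counts from the lowest class up were 23, 40, 68 and 28 rises and 1, 12, 30 and 16 falls. The order of the classes by share called was the same as with control arrays, for rises and for falls. With the mean of all 12 arrays, which includes the raised levels, only 4 of the rises were in the lowest class and 47 in the highest.

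**Figure D3:**
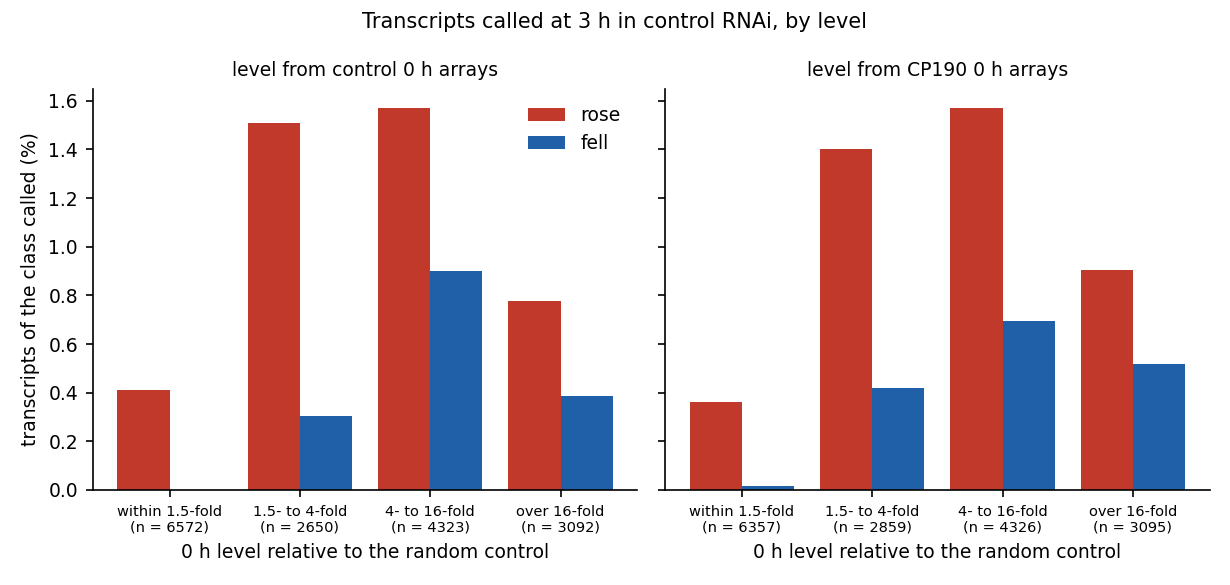
Percentage of the transcripts in each class of 0 h level that rose (red) or fell (blue) at 3 h in control RNAi cells. Classes are from the control 0 h arrays (left) or the CP190 RNAi 0 h arrays (right); in both, the share of rises is highest at 4- to 16-fold above the random control (1.57%) and lowest within 1.5-fold (0.411% and 0.362%). With the replicate block the share of rises in the classes on the left is highest at 1.5- to 4-fold (2.75%).

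Of the 27 rises that began within 1.5-fold of the random control, 2 were still there at 3 h, 20 had reached 1.5- to 4-fold, 3 had reached 4- to 16-fold and 2 had passed 16-fold. Their median log2 change was 1.01, and those of the next 3 classes were 0.95, 0.98 and 0.73. Of 24 rises from over 16-fold, 4 were of at least 2-fold. At this bright end, 10 rises had an array above an intensity of 32768. Most changes kept a transcript in its class or moved it by one: 43 of the 68 rises from 4- to 16-fold stayed in it and 25 passed 16-fold. Among falls from that class, 18 of 39 stayed and 21 went to 1.5- to 4-fold.

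Replicate arrays of a group were close. The SD of the log2 difference between replicates was 0.206 at 0 h and 0.182 at 3 h. The median absolute difference was 0.081 at 0 h within 1.5-fold of the random control and 0.164 in the class at 4- to 16-fold. The class nearest background was thus the least variable on the log2 scale. The standard error of a change had a median of 0.0999 and a 95th percentile of 0.173.

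The 3 h change repeated between replicate numbers for large changes and not in general. Across all 16637 transcripts, the change between the arrays numbered 1 and that between the arrays numbered 2 had Pearson's r of 0.517 but Spearman's rho of 0.0825. These are descriptions across transcripts, which are not independent. The direction was the same in 50.7% of transcripts. A rise of at least 2-fold was seen for 72 transcripts in replicate 1 and 69 in replicate 2, 56 of them in both. For falls of that size the numbers were 6 and 8, with 1, FBtr0077877, in both. Of the called rises, 90 of 159 were larger in replicate 1.

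Both 3 h arrays lay above both 0 h arrays for 2403 transcripts (14.4%), and below both for 2449 (14.7%). All 159 rises and 59 falls were among them. With 2 arrays in each group, an exact permutation test of a single transcript cannot give a two-sided p below 0.333, so calls rest on the spread pooled by limma over all arrays.

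**Figure D4:**
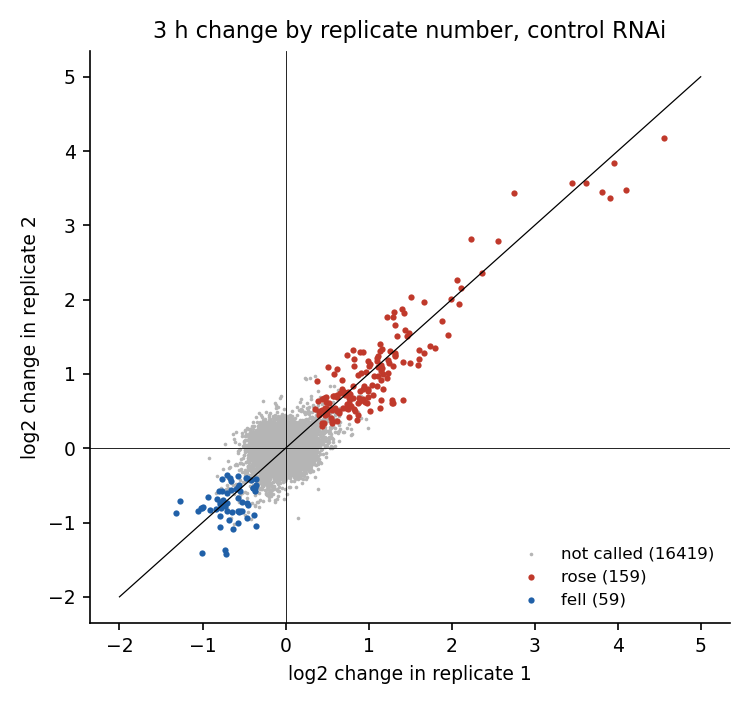
Log2 change at 3 h between the arrays numbered 1 (horizontal) and between those numbered 2 (vertical), for 16637 transcripts in control RNAi cells, with the line of equal change. The called rises (159, red) and falls (59, blue) lie along the line, and the transcripts not called (grey) form a cloud around 0.

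For most transcripts the data bound the 3 h change as measured. They do not bound the change of the transcript itself where background or saturation makes a measured fold smaller. The 95% interval of the change lay within 2-fold in either direction for 16458 transcripts (98.9%). Of the 10065 over 1.5-fold above the random control at 0 h, where background weighs less, this held for 9905 (98.4%). An interval within 1.5-fold was found for 9248 of these (91.9%). Only 52 transcripts had an interval that reached 2-fold without being called.

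The arrays of CP190 RNAi cells share no sample with the control arrays, so they give a second reading of the changes of the transcripts called in control cells. The tests are not independent, since each transcript has 1 pooled spread for both arms, and a small spread favours a call in both. Of the 159 rises, 156 (98.1%) were also higher at 3 h in CP190 RNAi cells, against 47.8% of all transcripts. There 87 of them (54.7%) passed the test as rises, against 0.613% of all transcripts. Of the 59 falls, all 59 were lower in CP190 RNAi cells and 12 (20.3%) passed, against 0.0902% of all transcripts. With any 1 of the 4 CP190 RNAi arrays left out, the share that passed was 33.1 to 37.7% for rises and 0 to 11.1% for falls, while the share in the same direction was 95.4 to 99.3% and 92.6 to 100%. In the full fit, all 15 rises of at least 4-fold passed in both arms, as did 36 of the 54 rises of 2- to 4-fold and 8 of the 30 under 1.5-fold. Falls did not follow this order. Of the 4 falls of at least 2-fold, 0 passed in CP190 RNAi cells, with a median of -0.48 there against -1.09 in control cells. Of the falls of 1.5- to 2-fold 9 of 38 passed there, and of those under 1.5-fold 3 of 17.

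The changes were smaller in CP190 RNAi cells on the median, 0.64 against 0.90 for the rises and -0.42 against -0.70 for the falls. The transcripts were chosen on the control arrays, which favours larger values there. The difference between the arms was tested directly, and limma called 0 of 16637 transcripts (0%), with 403 at an unadjusted p under 0.05. These 403 held 43 of the 159 rises and 19 of the 59 falls. The difference, CP190 minus control, was below 0 for 137 of the rises and 4 of the falls, against 8321 of all transcripts. Choosing on the control arrays favours this too. The smallest adjusted p of the difference was 0.59. The replicate block gave 4 calls, each a smaller rise in CP190 RNAi cells. Among the 159 rises, the 95% interval of the difference lay within 2-fold for 134, and among the 59 falls for 53.

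FBtr0100515 read 656.6 and 589.5 at 0 h and 10320.0 and 10229.1 at 3 h in CP190 RNAi cells, a log2 change of 4.05 ± 0.12. FBtr0088368 changed by 3.88 ± 0.099 there and Fatp1 by 1.22 ± 0.13, close to their control values. The difference for Fatp1 was -0.11, with a 95% interval of -0.53 to 0.31. FBtr0113039 read 872.0 and 1225.0 at 0 h and 843.9 and 1087.5 at 3 h, already lower at 0 h than in control cells. Its change was -0.11 ± 0.20, and the difference from control cells was 0.99 ± 0.28 (adjusted p = 1).

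**Figure D5:**
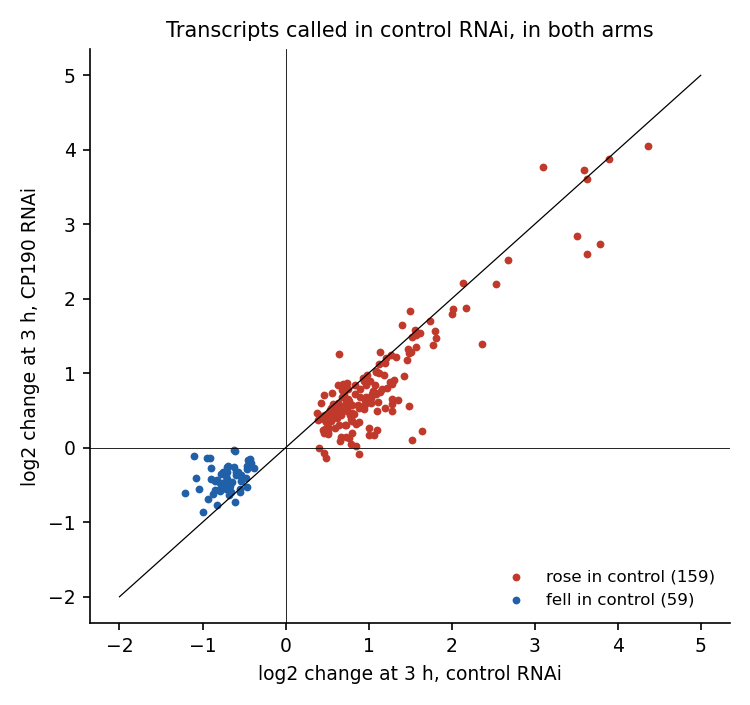
Log2 change at 3 h in control RNAi cells (horizontal) and in CP190 RNAi cells (vertical) for the 159 transcripts that rose and the 59 that fell in control cells, with the line of equal change. Of the rises 156 are above 0 on the vertical axis, and all 59 falls are below it.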

How the data were processed

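The arrays were single-colour NimbleGen expression arrays that carried Cy3-labelled total RNA, per the labels' protocols. The authors deposited 1 intensity per transcript and array on a linear scale. RMA is the tool listed per the submitters' processing notes. Its release and the array's annotation are each not given in the sources used here, nor is a build. RMA equalises array distributions, so a change common to most transcripts would not show. Medians of the 12 arrays lay between 1136 and 1227 and the random control between 413 and 425, and precision is limited by how many arrays there are.

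The log2 of each intensity was taken with no pseudocount or filter. limma 3.58.1 (R 4.3.3; lmFit, then eBayes) estimated 6 group means from the 12 arrays, which leaves 6 residual degrees of freedom. P-values were two-sided and Benjamini-Hochberg adjusted over 16637 transcripts in each comparison, with a threshold of 0.05. The fit was tested on simulated data with independent noise on each array. Those data lack the shared replicate differences given next, so they do not show how the unpaired fit deals with them. Replicate differences correlated between all 15 pairs of groups (0.147 to 0.608, above 0.1). Arrays with the same replicate number, taken from the titles, thus shared a difference. The main fit did not use this pairing, and it gave the standard errors, intervals and p-values above unless the block is named. Alternatives were the replicate block, which does use it, quantile normalisation, median centring, another prior, filters, background subtraction and left-out arrays. In the background subtraction, values under 50 were set to 50.

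RefSeq's Release 6 gene table listed 44 identifiers as synonyms, of which 16 had 1 gene and were named and 28 had several and were not. The rule named these 16 and the 2 largest non-overlapping rises and falls without a name. Of the lists set, lipid transport held Fatp1 and the ecdysone, apoptosis, cell cycle, heat shock, insulator and cell type marker lists held 0 named members, so the identity of the cells was not checked here. The transcripts and lists were chosen with earlier results of these data known.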

Additional observations from a re-analysis of the deposited data

How the results depend on the processing

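Called changes of at least 2-fold numbered 59 to 83 under all alternatives, against 73 as reported, and the calls of FBtr0100515, FBtr0088368 and Fatp1 held under all of them. Of the single-transcript values recomputed, 388 of 398 kept their side of the threshold and 10 lost the call, all of FBtr0077877 or FBtr0113039. FBtr0100515, FBtr0088368, Fatp1, FBtr0077877 and FBtr0113039 kept their direction under all alternatives. Direction was not compared for the other called transcripts. Nor was it compared for the named transcripts not called, and some of these changed sign. Without control 0 h replicate 1, rdx went from -0.021 to 0.095 and SuUR from -0.087 to 0.022. Counts for control cells were 386 with the replicate block (249 rises, 137 falls), 135 after subtracting the random control (101 and 34), 121 at an adjusted p under 0.01 (99 and 22), 89 with only the arrays compared (79 and 10), and 135 to 210 with 1 array left out (98 to 155 and 26 to 55). The fits that left out 1 of the 8 arrays outside the comparison were added after seeing the data. Either replicate of such a group gave the same counts, since an array left alone adds nothing to the spread. They thus show the effect of leaving out the spread of a group, not of single arrays. The CP190 count of 117 became 229 with the replicate block, 73 after subtraction, 62 at 0.01 and 52 to 65 with 1 array left out. The difference of changes gave 0 calls as reported, 4 with the replicate block, 5 after subtraction and 0 to 1 with 1 array left out (1 without control 0 h replicate 2). By 0 h level, the replicate block gave 2.75, 2.15 and 1.42% rises and 0.868, 1.71 and 1.26% falls in the upper 3 classes, so the class with the highest share of rises turned from 4- to 16-fold to 1.5- to 4-fold, and classes from all 12 arrays gave 0.0632% rises in the lowest, 1.54% in the highest and 0.697% falls at 1.5- to 4-fold. After subtraction, 42.6% of the control rises and 8.82% of the falls were also called in CP190 RNAi cells, and 94.1% and 85.3% had the same direction there. The median rise was 0.67 with the replicate block and 1.40 after subtraction. The cause of these shifts was not tested, except that a stricter threshold leaves fewer calls by construction. Signal close to background, or close to saturation, limits what a measured fold can show.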
